A study of Mus musculus with 2 samples.

Results

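The genes described here are 8 regulators of lymphoid transcription: the DNA-binding Runx subunits Runx1, Runx2 and Runx3, their partner Cbfb, the octamer-binding POU factors Pou2f1 (Oct-1) and Pou2f2 (Oct-2), the B cell coactivator Pou2af1 (OBF-1), and the forkhead factor Foxp1. They were chosen by symbol and are 8 of the 43346 genes in the table. Total RNA was sequenced from CH12.LX, an immortalized mouse B cell lymphoma line of strain B10.H-2aH-4bp/Wts, labelled female, with no treatment named. The study has 1 group of 2 libraries, biological replicates 1 and 2, so no conditions were compared and the only test is of library against library. An established tumour line stands for no normal B cell stage. The replicates have biosample records of their own, but the labels do not say how the cultures were grown, so a difference between these libraries may be technical. The p-values cover counting error alone and do not measure the spread between replicates. RNA came from cells in bulk, in which fewer cells of a type and less RNA per cell cannot be told apart.

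Runx proteins bind DNA through their Runt domain, and the Cbfb subunit, which makes no DNA contacts of its own, strengthens that binding. Each Runx gene is read from a distal and a proximal promoter, which give proteins with different amino ends, and Runx1 is needed for blood stem cells to form. Oct-1 is found in most tissues and Oct-2 mainly in B cells; both bind the octamer element of immunoglobulin promoters, where Pou2af1 joins them, and Foxp1 is a repressor needed for early B cell development.

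The upstream stretches of the promoters whose use is described below are shown so that the alternative starts can be compared. They are RefSeq sequences on GRCm38.p6, 5′ to 3′ on the gene's strand, kept only where the stretch lay in no annotated exon. Capitals mark matches to the Runx motif, TGTGGT or TGCGGT, on either strand. The distal Runx1 stretch (chr16:92826150-92826324, minus strand) had a GC content of 45.1% and the proximal one (chr16:92697330-92697579, minus strand) 67.6%.
Runx1 distal: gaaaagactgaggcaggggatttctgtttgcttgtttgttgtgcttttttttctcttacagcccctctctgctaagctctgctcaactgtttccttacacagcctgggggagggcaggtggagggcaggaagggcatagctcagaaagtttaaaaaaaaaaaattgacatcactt
Runx1 proximal: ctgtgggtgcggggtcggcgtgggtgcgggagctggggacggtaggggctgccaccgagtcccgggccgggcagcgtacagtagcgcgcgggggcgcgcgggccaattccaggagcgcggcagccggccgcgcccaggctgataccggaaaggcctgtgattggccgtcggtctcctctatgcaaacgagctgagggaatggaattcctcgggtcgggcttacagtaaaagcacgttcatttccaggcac
The distal Runx3 stretch (chr4:135120448-135120644, plus strand) had a GC content of 65.5% and the proximal one (chr4:135152295-135152495, plus strand) 77.1%.
Runx3 distal: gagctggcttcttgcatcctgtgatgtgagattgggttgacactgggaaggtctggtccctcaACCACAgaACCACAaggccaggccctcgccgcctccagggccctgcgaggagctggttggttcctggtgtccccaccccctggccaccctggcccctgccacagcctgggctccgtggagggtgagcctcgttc
Runx3 proximal: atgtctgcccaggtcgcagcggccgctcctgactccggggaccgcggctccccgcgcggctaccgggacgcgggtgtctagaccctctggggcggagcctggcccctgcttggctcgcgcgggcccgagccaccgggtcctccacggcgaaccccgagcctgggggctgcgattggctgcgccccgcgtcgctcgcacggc
The main Pou2f2 start is preceded by chr7:25132513-25132710 on the minus strand, with a GC content of 63.6%.
Pou2f2: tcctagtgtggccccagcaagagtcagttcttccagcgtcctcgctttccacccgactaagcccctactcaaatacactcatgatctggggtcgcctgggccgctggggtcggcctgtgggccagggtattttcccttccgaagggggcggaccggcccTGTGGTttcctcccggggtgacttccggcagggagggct

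Runx letters stood at 2 places in the distal Runx3 window, at positions -134 and -126 counted from the start, and the matches did not overlap. Of 32851 promoter windows of 250 bases, 18.6% held at least 1 such match and 2.01% held 2 or more. Pou2f2 had 1 match at -91, distal Runx2 had 1 at -80, and a far upstream Foxp1 start, whose group held 0% of Foxp1 TPM, had 1 at -58. The Runx2 and Foxp1 matches lay outside the exon-free stretches of those windows. All other windows of the members (1 to 3 windows a gene, with 8 of 8 genes matched) held none. Neither the octamer ATGCAAAT, present in 1.6% of windows, nor the forkhead letters TGTTTAC, present in 3.17%, occurred on either strand in any member's window. A match describes letters only.

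The libraries held 49278383 and 55950529 expected counts, which are estimated reads per gene. Levels are given as TPM, which divides by transcript length and sums to the same total in each library, and so allows genes to be compared. Protein-coding genes held 24.34% of TPM, so TPM values read low; rescaled to protein-coding genes, Pou2af1 would stand at 93.3 TPM. Of 21474 protein-coding genes, 8895 (41.4%) were detected, meaning 1 TPM or more in both libraries, and 3110 (14.5%) reached 10 TPM in both. The labelled B cell identity was checked against markers: 10 of 10 B cell markers were detected, with summed levels of 2300.0 and 2213.0 TPM, as were 2 of 6 T cell markers, Cd3g and Cd3d, with summed levels of 3.98 and 4.59 TPM over the list. Cd3e, which defines T cells, had 0 counts, allowing up to 0.0213 and 0.0196 TPM for 3 counts. None of 6 myeloid, 6 erythroid and megakaryocyte or 4 NK cell markers was detected, and these lists summed to between 0.14 and 0.97 TPM. Of the 8 members 7 were detected, all but Runx2, and 3 reached 10 TPM in both libraries: Cbfb, Pou2af1 and Foxp1. Pou2f2 reached 10 TPM in replicate 2 alone, at 11.6 TPM. The median mean level of the 8, undetected Runx2 included, was 6.71 TPM. It was 6.67 TPM for detected protein-coding genes and 0.195 TPM for all protein-coding genes.

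**Figure D1:**
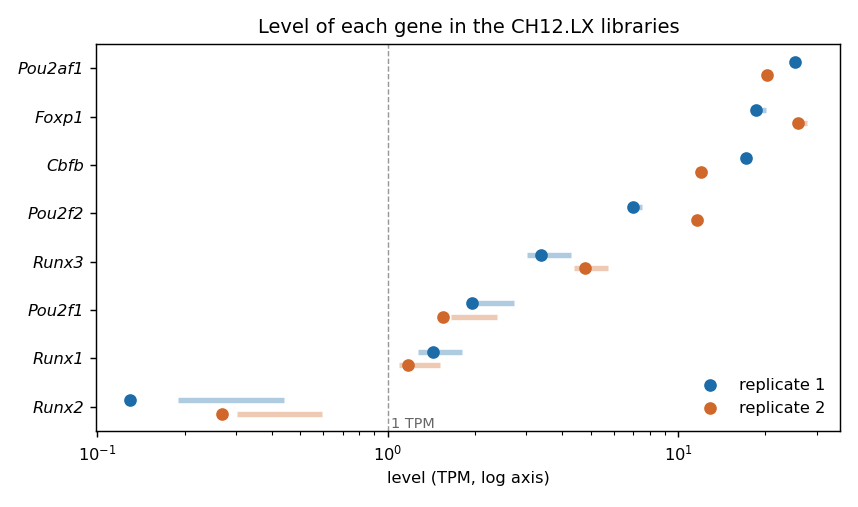
Level of each gene in TPM (log axis) in replicate 1 (blue) and replicate 2 (orange), with the deposited credibility bounds of TPM as pale bars. Pou2af1 and Foxp1 stand highest and change places between libraries, and Runx2 alone lies below 1 TPM.

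Among the Runx subunits Runx3 was the most abundant. Runx3 (ENSMUSG00000070691, chr4:135120652-135177990), a Runx gene active in lymphocytes, was measured at 3.38 TPM (replicate 1) and 4.8 TPM (replicate 2), a mean of 4.09 ± 1.00 TPM (SD, n = 2). Runx1 (ENSMUSG00000022952, chr16:92601466-92826149) stood at 1.43 and 1.18 TPM, a mean of 1.305 ± 0.177 TPM. Runx2 (ENSMUSG00000039153, chr17:44495987-44814797), best known as the regulator of bone formation, stood at 0.13 and 0.27 TPM, from 79 and 170 counts. The order Runx3, Runx1, Runx2 held in each library and their values did not overlap. Runx3 held 68.4% of summed Runx TPM in replicate 1 and 76.8% in replicate 2, and Runx2 held 2.63% and 4.32%. The ratio of Runx3 to Runx1 was 2.36 and 4.07, with Runx3 the higher in each library. Its size depended on release and forms. With release M2 it was larger, as Runx3 stood at 3.38 and 4.83 TPM and Runx1 at 0.55 and 0.63 TPM. For complete coding forms it was smaller, with Runx3 at 1.97 and 2.95 TPM and Runx1 at 0.97 and 0.95 TPM.

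Cbfb (ENSMUSG00000031885, chr8:105170674-105217989) was more abundant than its DNA-binding partners summed. Its level was 17.2 TPM (replicate 1) and 12.02 TPM (replicate 2), a mean of 14.6 ± 3.63 TPM, above 88.95% of protein-coding genes. The ratio of Cbfb to summed Runx TPM was 3.47 and 1.92. The excess was present in each library and was smaller in replicate 2, where Cbfb was lower and Runx3 higher.

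The octamer pair was led by the B cell form. Pou2f2 (ENSMUSG00000008496, chr7:25087344-25179726) stood at 7.02 and 11.6 TPM, a mean of 9.325 ± 3.26 TPM, and Pou2f1 (ENSMUSG00000026565, chr1:165865154-166002678) at 1.96 and 1.55 TPM, a mean of 1.755 ± 0.290 TPM. Pou2f2 was 3.58-fold above Pou2f1 in replicate 1 and 7.50-fold in replicate 2. With release M3 the ratio was 14.04 and 29.7, and Pou2f1 there lay below Runx1, at 0.345 and 0.331 of its TPM. Their coactivator Pou2af1 (ENSMUSG00000032053, chr9:51213708-51240080) was the highest of the 8 by mean, with 25.2 and 20.2 TPM, a mean of 22.7 ± 3.54 TPM, above 92.86% of protein-coding genes. Pou2af1 exceeded the summed octamer-binding factors 2.81-fold and 1.53-fold.

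Foxp1 (ENSMUSG00000030067, chr6:98925338-99522721) had a gene level near that of Pou2af1. Its level was 18.5 TPM (replicate 1) and 25.9 TPM (replicate 2), a mean of 22.2 ± 5.22 TPM. Pou2af1 led in replicate 1 and Foxp1 in replicate 2, so the order of these neighbours was not resolved. Complete coding forms of Foxp1 alone stood at 10.4 and 13.1 TPM, below Pou2af1 in both libraries. Those of Cbfb stood at 16.75 and 11.63 TPM, above Foxp1 in replicate 1 and below it in replicate 2. By gene TPM in the M4 table, every other pair of neighbours kept its order: Foxp1, Cbfb, Pou2f2, Runx3, Pou2f1, Runx1, Runx2. Their ranges did not overlap, but for complete coding forms the place of Foxp1 above Cbfb did not hold in replicate 1.

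The libraries were compared gene by gene with a 2-sided exact conditional binomial test on scaled counts, with Benjamini-Hochberg adjustment over 15438 genes. Its error is that of counting alone, and it says nothing of conditions. A call needed an adjusted p under 0.05 and a ratio of at least 2. Of the members 1 was called, against 4.77% of all genes tested (3.71% called higher and 1.07% called lower in replicate 2). That member was Runx2, at a log2 ratio, replicate 2 over replicate 1, of 1.01 (95% interval 0.61 to 1.41; adjusted p = 7.1e-07, exact binomial test). Its ratio of 2.01 lay at the criterion itself, and the call was lost with DESeq2 size factors, where the log2 ratio was 1.00. The deposited credibility bounds of Runx2, which also cover the assignment of shared reads, overlapped between the libraries.

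By adjusted p alone 7 of the 8 members passed in release M4, a count to be read beside the 50.4% of all genes that did (25.2% higher and 25.1% lower in replicate 2). Pou2f2 had 3680 counts in replicate 1 and 6466 in replicate 2, a log2 ratio of 0.71 (adjusted p = 9.35e-130, exact binomial test). Runx3 had 785 and 1340 counts, a log2 ratio of 0.67 (adjusted p = 8.31e-25, exact binomial test). Among 9835 genes whose mean reached 1 TPM, 95.9% had a smaller log2 ratio than Pou2f2 in absolute size and 95% a smaller one than Runx3. Cbfb, with 4990 and 3786 counts, had a log2 ratio of -0.50 (adjusted p = 1.13e-56, exact binomial test), larger in size than that of 88.5% of those genes. The log2 ratios of Foxp1 (0.38), Pou2af1 (-0.29) and Pou2f1 (-0.24) exceeded in size those of 79.9%, 69.2% and 60.2% of the genes. With release M3 Pou2f1 did not pass, at a log2 ratio of -0.10 (adjusted p = 0.775, exact binomial test). Runx1 was the member that did not pass in M4, with 437 and 503 counts and a log2 ratio of 0.10 (95% interval -0.08 to 0.29, adjusted p = 0.399, exact binomial test). The median log2 ratio of the 8 was 0.24, against 0.01 over all genes tested, with 5 members higher and 3 lower in replicate 2. The credibility bounds of 5 members did not overlap between the libraries, as for 34.7% of all genes tested. Of the 6 T cell markers, the 4 tested were all higher in replicate 2, at a median log2 ratio of 0.41, and none was called. Cd3g and Cd3d, the markers detected, had log2 ratios of 0.19 and 0.38. Cd4 rested on 20 and 29 counts and Cd8a on 2 and 8. Of the untested markers, Trac had 2 counts in replicate 1 and 0 in replicate 2, and Cd3e had 0 in each. The part of these markers in the Runx3 difference was not tested.

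**Figure D2:**
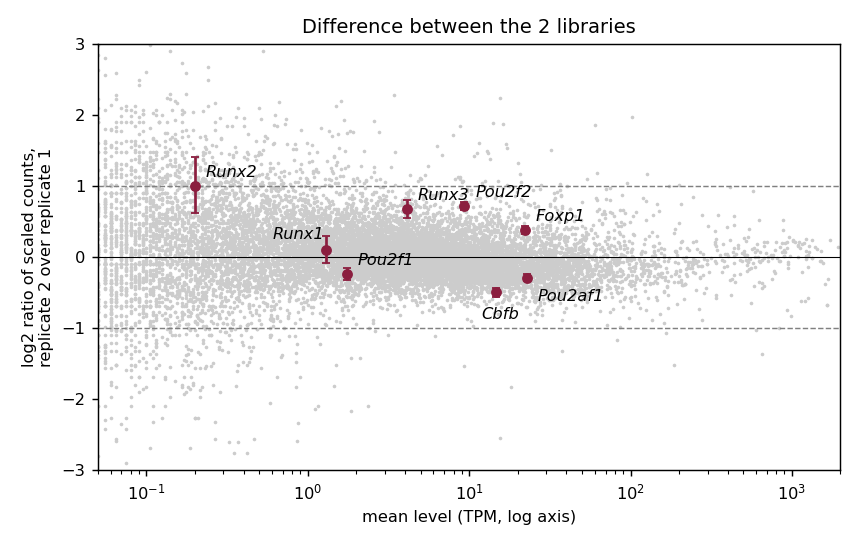
Log2 ratio of scaled counts, replicate 2 over replicate 1, against the mean level in TPM (log axis); red points are the 8 genes with 95% counting intervals, grey points are other tested genes, 14275 drawn in all with 1163 outside the plotted range, and dashed lines mark a ratio of 2. Runx2 sits on the upper line and the other 7 lie between the lines.

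For Runx1 the direction depended on the scale. Counts were higher in replicate 2 after scaling, whereas TPM was 1.43 in replicate 1 and 1.18 in replicate 2. The deposited length of Runx1, averaged over its transcripts by their abundance, was 2930.1 bases in replicate 1 and 3686 bases in replicate 2. The ratio thus had opposite signs on the count and TPM scales, and no direction is given for Runx1.

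Transcript shares are described next, as the deposited percent of a gene's TPM assigned to each annotated transcript. Reads shared by transcripts are split by an estimate, so a share is an estimate too. Transcripts were joined into start-site groups where annotated starts lay within 500 bases. A short transcript needs few reads to hold many TPM, so shares by expected count are also given where the order of forms depends on the scale.

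Runx1 was read from distal and proximal starts alike. Runx1-203, which encodes 451 codons from a proximal start, was the leading transcript by TPM, with 47.4% of the gene in replicate 1 and 36.7% in replicate 2. Runx1-201, the distal form with 465 codons, held 15.2% and 26.9%. By expected count the pair was level in replicate 1, at 31.3% each, and Runx1-201 led in replicate 2, with 43.5% against 19.0%. The distal start group held 27.3% and 39.8% of TPM and the proximal starts, 129 to 131 kb downstream, held the rest. By expected count the distal group held 36.6% and 52.0%, so distal starts were the lesser part by TPM in each library but not by count in replicate 2. The printed proximal stretch precedes the start of Runx1-202 and Runx1-206, and Runx1-203 is annotated to begin about 1 kb further on.

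2 other Runx1 transcripts passed 10% in 1 library or the other without coding a complete protein. The retained-intron transcript Runx1-206 held 17.8% and 6.91%, and the processed transcript Runx1-207 held 5.70% and 12.7%. The coding Runx1-202, which lacks an exon of 192 bases and has 387 codons, held 5.03% and 16.8%. Each of these shares rested on 21.4 to 109.7 counts. The skipped exon, whole and a multiple of 3 bases, lies at chr16:92644154-92644345 on the minus strand and codes for part of the protein in Runx1-201 and Runx1-203; it is shown from the GENCODE M21 transcripts because the forms differ by it.
Runx1 exon: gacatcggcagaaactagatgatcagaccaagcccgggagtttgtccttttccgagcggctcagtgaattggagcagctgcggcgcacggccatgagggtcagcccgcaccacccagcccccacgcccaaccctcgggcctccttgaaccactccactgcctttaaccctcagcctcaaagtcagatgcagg

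Most of the few Runx2 reads were given to the proximal start. Runx2-203, a proximal form of 514 codons, held 76.2% and 69.7% of the gene. The distal Runx2-202, of 528 codons, held 0% and 12.6%, from 0 and 23.35 counts. The transcripts Runx2-212 and Runx2-206, both of the nonsense-mediated decay class, passed 10% in 1 library each, at 14.1% in replicate 1 and 12.5% in replicate 2, on at most 5.59 counts. At this depth the distal share of Runx2 was not resolved, and by the deposited posterior mean Runx2-203 held 34.6%. The TPM of Runx2 in replicate 1 lay below its own credibility bounds of 0.190 to 0.439 TPM, and it did so in replicate 2 as well; 4.28% and 3.46% of the genes tested did the same. The exons of Runx2 share 519 bases with Runx2os1 on the opposite strand, which stood at 0.26 and 0.20 TPM from 18 and 15 counts, and its part in the Runx2 level was not tested.

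Runx3 differed widely between the scales. Runx3-201, the distal form of 423 codons, held 49.3% and 57.9% of TPM but 87.3% and 93.0% of counts. The retained-intron transcript Runx3-206, 447 bases long, held 35.1% and 31.0% of TPM on 37.75 and 50.44 counts. The proximal coding form Runx3-202 held less than 10% of the gene in each library. Among coding transcripts alone the distal start held 89.5% of Runx3 TPM as a mean over the libraries. The distal stretch printed above, which holds 2 Runx matches, is the one upstream of that leading form.

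**Figure D3:**
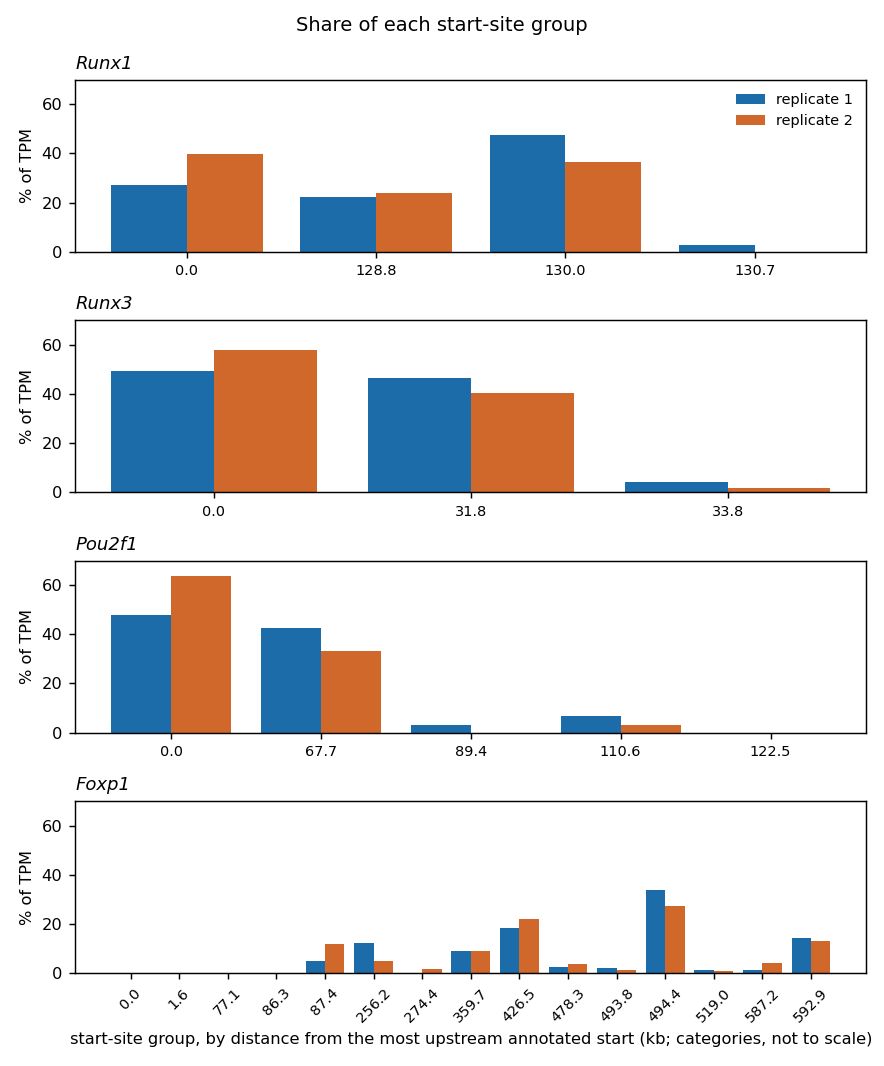
Share of TPM (percent) of each start-site group of Runx1, Runx3, Pou2f1 and Foxp1, ordered by distance in kb from the most upstream annotated start and drawn as categories, in replicate 1 (blue) and replicate 2 (orange). The distal group leads in Pou2f1 and in Runx3, where its share in replicate 1 is 49.3% against 46.6% for the next group. In Runx1 a proximal group leads in replicate 1 (47.6%) and the distal group in replicate 2 (39.8%). In Foxp1 the largest group by TPM lies 494 kb downstream.

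Cbfb reads were divided between 2 coding forms from 1 start group. Cbfb-202, of 182 codons, held 65.6% and 61.4%, and Cbfb-201, of 187 codons, held 30.2% and 34.0%. This order held in each library and by count. The forms differ by an exon part of 31 bases at chr8:105202548-105202578 on the plus strand, included in Cbfb-202 and coding there; 31 is not a multiple of 3, so the reading frame after it differs.
Cbfb segment: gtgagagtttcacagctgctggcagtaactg

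Pou2f1 was divided between long transcripts from 2 starts. Pou2f1-208, of 793 codons and 13022 bases, held 42.6% and 55.7%, and Pou2f1-205, of 782 codons and 13050 bases, beginning 67.7 kb further downstream, held 36.3% and 27.2%. By count the distal start group held 53.1% and 66.6% of the gene. The posterior mean gave Pou2f1-208 a lower share, 37.6%. The TPM of Pou2f1 lay below its own lower credibility bound in both libraries, as for 2.77% of genes tested, so the credible range stood above the point value. Pou2f1 exons share 3007 bases with Cd247 on the opposite strand, which stood at 0.53 and 0.47 TPM, and whether the counting used strand is not given in the sources used here.

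Pou2f2 had 1 start group with 93.2% and 93.9% of its TPM and several coding forms. Pou2f2-209, of 463 codons, led with 51.1% and 45.2%. Pou2f2-206, of 583 codons, held 10.6% and 19.0%, and Pou2f2-203, of 479 codons, held 8.80% and 11.8%. Pou2f2-205, of 485 codons, held 10.2% and 4.67%. The order below the leading form therefore differed between libraries by TPM. By expected count the order among these named forms was the same in each library. Pou2f2-209 held 74.2% and 67.5%, Pou2f2-203 12.9% and 17.7%, Pou2f2-206 3.96% and 7.31%, and Pou2f2-205 3.82% and 1.80%. Pou2f2-201, under 10% by TPM, held 2.09% and 2.87% of counts, below Pou2f2-205 in replicate 1 and above it in replicate 2. Pou2f2-203 carries an exon part of 48 bases, in frame and coding, that Pou2f2-209 lacks, at chr7:25097768-25097815 on the minus strand.
Pou2f2 segment: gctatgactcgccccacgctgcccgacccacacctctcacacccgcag

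Pou2af1 was listed with 1 transcript, Pou2af1-201, of 256 codons, so it gave no share to compare.

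Foxp1 was annotated with 15 start-site groups, of which the 4 most upstream held at most 0.16% of TPM each in either library. By TPM the leading transcript was Foxp1-218, an incomplete coding model of 607 bases, with 18.5% and 22.0%, and Foxp1-229, a processed transcript of 618 bases, held 14.3% and 13.2%. Transcripts under 700 bases together held 38.8% and 45.5% of Foxp1 TPM but 7.47% and 8.97% of counts. The same class held 41.9% and 38.5% of Runx3 TPM against 5.45% and 4.44% of counts. In these genes the TPM level therefore rested in large part on short models with few reads. Gm20696, on the same strand, shares 300 exon bases with Foxp1 and stood at 0.07 and 0.13 TPM.

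Complete Foxp1 coding forms fell into longer and shorter proteins. The 10 forms of 641 codons or more stood at 4.72 and 6.47 TPM together, and the 2 forms of 576 or 577 codons, which begin at the start group with the largest share by TPM, stood at 5.69 and 6.64 TPM. By count the longer forms held 59.9% and 63.6% of the gene and the shorter forms 29.6% and 24.9%. Their start group held 30.3% and 25.3% by count, below the group of Foxp1-206 in replicate 1 (36.2%) and that of Foxp1-204 in replicate 2 (41.1%). Which forms led within each class changed between libraries: Foxp1-206, of 673 codons, held 11.5% and 3.96%, and Foxp1-204, of 705 codons, 5.07% and 11.8%. Foxp1-230, of 576 codons, held 21.6% and 11.1%, and Foxp1-225, of 577 codons, 9.04% and 14.5%. Within each pair 1 form was lower and the other higher in replicate 2, while the class totals differed less between the libraries.

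**Figure D4:**
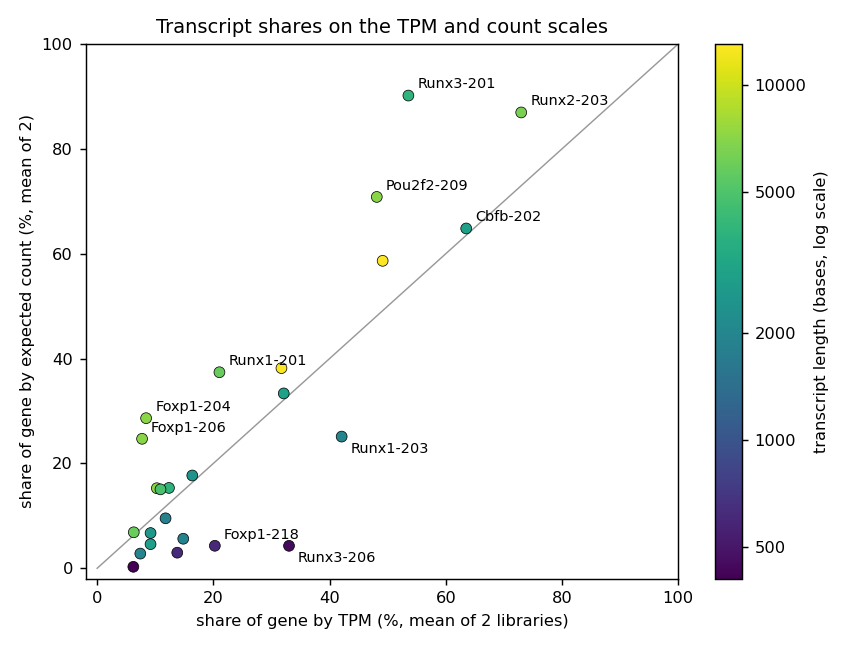
Share of the gene held by each named transcript, by TPM (horizontal axis, percent) and by expected count (vertical axis, percent), as means of the 2 libraries, coloured by transcript length in bases; Pou2af1, with 1 transcript, is left out. Runx3-206, Foxp1-218 and Foxp1-229, all under 700 bases, lie far below the diagonal, and Runx3-201 lies far above it.

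The annotation release of the deposited gene tables changed the level of Pou2f1 and Runx1 and the counts of Pou2f2. Pou2f1 stood at 1.98 and 1.63 TPM with release M2 and at 1.96 and 1.55 TPM with M4, but at 0.50 and 0.39 TPM with M3, where it held 99.9 and 99.58 counts and where Pou2f1-208 was listed but Pou2f1-205 was not. Runx1 stood at 0.55 and 0.63 TPM with M2, which lists 3 of its transcripts, and at 1.43 and 1.18 TPM with M4, which lists 7. Pou2f2 had 1403 and 2552 counts with M2 and 3680 and 6466 with M4, at TPM levels of 7.82 and 12.9 against 7.02 and 11.6. Detection of Pou2f1 in M3 and of Runx1 in M2 was lost under the 1 TPM threshold. Pou2f2 and the other 5 members had mean TPM levels in M2 and M3 that differed from M4 by less than the spread between the libraries.

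**Figure D5:**
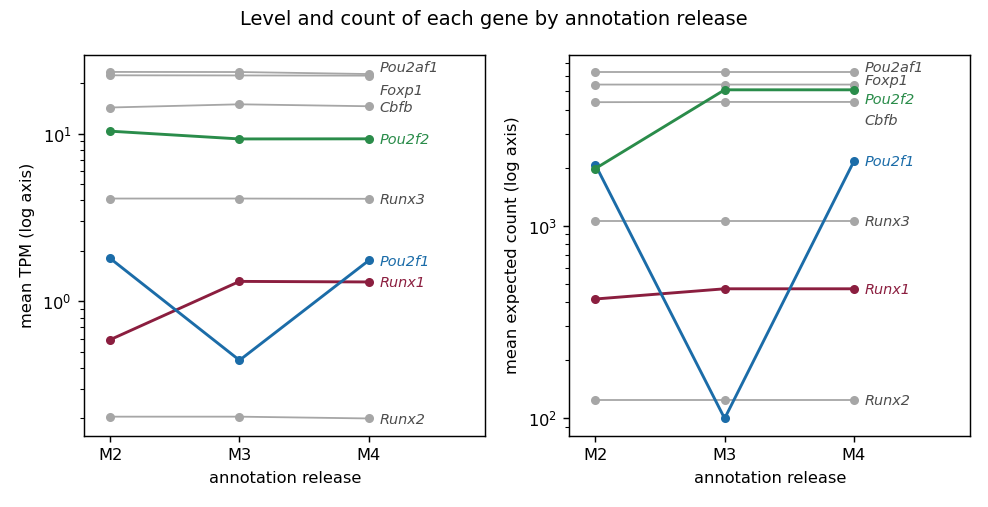
Mean TPM (left, log axis) and mean expected count (right, log axis) of each gene in the gene tables of releases M2, M3 and M4. Pou2f1 is lowest in M3, Runx1 is lower in TPM in M2, Pou2f2 is lower in counts in M2, and the grey lines of the other 5 genes are nearly flat.

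Genes around these factors were described from lists. Each list is to be read beside the 41.4% of all protein-coding genes detected and the 4.77% of all genes tested that were called. Of 19 Runx partners and corepressors matched, 13 were detected, led by Aes at 19.7 and 21.9 TPM and the corepressor Ncor1 at 21.9 and 18.4 TPM. Tle1, a Groucho corepressor, had 0 counts and Yap1 had 1 count in all. Tle5 is a newer symbol of Aes, and Prmt1 was not analysed here. None of the 16 tested was called different between libraries, and their median log2 ratio was 0.07, against 0.01 over all genes tested.

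Of 13 POU genes outside the members 0 were detected and 11 stood under 0.1 TPM. Pou6f1, at 0.58 and 1.46 TPM, was the highest and was called higher in replicate 2, at a log2 ratio of 1.34. Pou4f1 stood at 0.47 and 0.27 TPM, and Pou4f3 had 0 counts. Pou2f1 and Pou2f2 were thus the POU genes above 1 TPM in both libraries among those listed. Of 38 forkhead genes outside the members 10 were detected and 24 stood under 0.1 TPM. Foxk2, at 10.3 and 10.6 TPM, and Foxn3, at 5.07 and 6.09 TPM, were the highest of them and lay below Foxp1, while Foxl2 and Foxq1 had 0 counts. Foxj1, at 0.17 and 0.63 TPM, was the 1 forkhead gene called, higher in replicate 2, and is named after its values were seen. The median log2 ratio of the 16 forkhead genes tested was 0.06.

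All 12 genes of a list with octamer sites, reported Oct-2 or OBF-1 dependence, or products that bind OBF-1 were detected. Of all protein-coding genes 41.4% were detected, but the list was chosen with earlier results of these data known. It shares genes, Ighm among them, with the B cell markers, so detection in a B cell line was likely beforehand. The part of octamer factors in these levels was not tested. The immunoglobulin constant genes Igkc, at 1518 and 1494 TPM, and Ighm, at 1545 and 1452 TPM, led the list. Siah1a, at 1.19 and 1.31 TPM, and Siah1b, at 3.62 and 2.82 TPM, which are ubiquitin ligases that bind OBF-1, were the lowest. No gene of the list was called, and its median log2 ratio was -0.06.

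Of 15 genes reported as Runx regulated in blood cells 8 were detected, beside 41.4% of all protein-coding genes. Igha, the constant gene of IgA, stood at 202 and 183 TPM and the integrin gene Itga4 at 20.1 and 20.4 TPM. Cd8a, of T cells, stood at 0.01 and 0.02 TPM and Cebpa, of myeloid cells, had 0 counts. Of 12 Foxp1 partners and reported targets 8 were detected. The NuRD subunits Chd4, at 40.2 and 36.1 TPM, and Mta2, at 38.2 and 31.4 TPM, led, and the recombinase genes Rag1 and Rag2 had 0 counts, which allow up to 0.00421 and 0.0109 TPM in replicate 1 for 3 counts. No gene of either list was called different between the libraries, beside 4.77% of all genes tested. The median log2 ratios were 0.06 for the Runx list and -0.10 for the Foxp1 list.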

How the data were processed

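The 2 libraries of CH12.LX, replicates 1 and 2, were described and set against each other. The deposited tables hold, per the file headers, an expected count for each gene and transcript, its TPM level (transcripts scaled to a fixed total), the percent of a gene's TPM given to each transcript, and other columns, of which posterior means and credibility bounds of TPM were used. All are the authors' estimates. The assembly is mm10, and the gene tables exist for 3 annotation releases, per the labels and manifests. Aligner, quantifier and use of strand: not given in the sources used here.

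Release M4 was the main one. Symbols, coordinates and coding regions were taken from GENCODE M21, which shares the assembly, by identifier without version, for 42462 of 43346 genes. Of 94 member transcripts, 90 had the same length in M21, and 1 Foxp1 transcript belongs to another gene there. Expected counts were rounded and scaled with TMM (edgeR 4.0.16, R 4.3.3; DESeq2 1.42.0 size factors as an alternative) over genes with at least 10 counts in all. The 2-sided exact conditional binomial test doubled the smaller tail and was tested on simulated data. The simulated counts varied by counting error alone, so that check says nothing of spread between replicates. The 95% intervals of the test cover counting error only, as does the limit of 3 counts for a count of 0. edgeR's quasi-likelihood test was not used, since 1 library a side leaves no residual degrees of freedom. Software was Python 3.11.15 (numpy 2.4.6; pandas 2.3.3; scipy 1.17.1; matplotlib 3.10.9).

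The text names all 8 members, transcripts with at least 10% of a member in either library, and the 2 highest and 2 lowest genes of each context list; any other gene was named after its values were seen. A gene that this rule takes is not reported here. The members and lists were chosen with earlier results of these data known. Alternatives were other releases, posterior means, scalings, filters, thresholds, pseudocounts and start windows, and leaving out each library.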

Additional observations from a re-analysis of the deposited data

How the results depend on the processing

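No paired analysis was possible because the study has 1 group, whose replicates have no partner in another group. Of the 8 members 4 were detected at 5 TPM and 3 at 10 TPM, against 7 at 1 TPM. With DESeq2 size factors 0 members were called, since the log2 ratio of Runx2, 1.00, then lay just under the criterion (adjusted p = 8.92e-07, exact binomial test). With no ratio criterion 7779 genes and 7 members were called. The log2 ratio of Runx1 reversed on the TPM scale, to -0.26 with a pseudocount of 0.1 and -0.16 with a pseudocount of 1, where no test was made. By expected count 6 of 8 leading transcripts were the same, with Runx1-201 and Foxp1-204 leading instead, and without replicate 2 Foxp1-230 led its gene. The leading start group held 50% or more in 6 members, in 4 without replicate 2, and in 7 with a window of 2000 bases. With that window the proximal Runx3 group led in replicate 1, at 50.7% of TPM against 49.3%. The distal Runx3 group led in replicate 2, at 57.9% against 42.1%. For Runx1 the same window joined the proximal starts, which then led in each library, at 72.7% and 60.2% of TPM. Depth limits Runx2, whose transcript shares rest on 79 and 170 counts in all. Counts cover all reads given to a gene, and the part of overlapping genes was not tested.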
